A study of Mus musculus with 8 samples.

Results

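Transcripts of 10 genes that mark basophils and mast cells were measured in NK cells of the mouse spleen that had been separated by a ChAT-eGFP reporter. ChAT is choline acetyltransferase, which synthesises acetylcholine. The genes are Fcer1a, Ms4a2, Mcpt8, Prss34, Mcpt4, Tpsb2, Cpa3, Hdc, Gata2 and Cd200r3. They were taken by the RefSeq accession of each array probe, and all 10 were found, among 20284 genes that the array names, by 11 probes. Of these, 8 passed the filter on dim probes (at least 4 of the 8 arrays above background by the scanner's flag, called well above background here) and were tested among 13607 genes, while Ms4a2 and Mcpt4 were too dim. Per the labels and the series' design text, the groups were 4 ChAT_positive pools (ChAT+ NK cells) and 4 ChAT_negative pools (ChAT- NK cells) from spleens of the same kind of reporter mouse, enriched magnetically and then divided by eGFP, each pool joining cells of 2 to 4 mice. No treatment is named, and the sources used here give no strain, age or sex. The labels do not say whether pools shared mice, so a p-value here reflects only how these pools varied, and some of that variation may be technical.

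Basophils and mast cells are granulocytes that carry the high-affinity IgE receptor and release histamine, proteases and lipid mediators when antigen cross-links the bound IgE. Basophils circulate and are found in small numbers in the spleen, whereas mast cells mature in tissues. In the mouse, Mcpt8 and Prss34 encode proteases of basophil granules, Mcpt4 and Tpsb2 encode proteases best known from connective tissue mast cells, and Cpa3, Hdc, Gata2 and the IgE receptor genes serve both lineages. Mouse basophils, like NK cells, display the integrin CD49b, which is encoded by Itga2. A transcript in a pool of sorted cells can come from any cell in that pool, and fewer cells of a type cannot be told apart from less RNA per cell.

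The arrays were of similar quality: the share of non-control spots above background was 50.2% to 59.7% in ChAT_positive pools and 57.5% to 63.2% in ChAT_negative pools, and no spot was saturated. All 12 markers of NK cells on the list were well above background on all 8 arrays. Each group had 1 slide and 1 scan to itself, so for every difference below slide and group cannot be told apart. Signals are log2 of the processed intensity relative to the 75th percentile of the same array, so 0 is the signal of that percentile.

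GATA2, the protein made by one of the 10 genes, belongs to a family of transcription factors that bind the core letters GATA. The 250 bases before the annotated start were therefore searched on both strands for 4 words of this core, which are AGATAA, then the same word ending in G (AGATAG), then the word beginning with T (TGATAA), and last the word with both of these changes (TGATAG). RefSeq promoters (build GRCm38.p6) were matched for 9 of the 10 genes, and Tpsb2 had no entry. At least 1 of these words stood before the start of 7 genes, in 7 of the 10 promoters that the 9 genes have, against 26.5% of all 32851 promoters searched over the same length. The promoters below are those of the 5 genes with a word nearest the start and of Mcpt8, a basophil protease gene with none. Capitals mark the words, which read TTATCT or TTATCA where they lie on the opposite strand. Words that touch run together.
Prss34, chr17:25298144-25298393, + strand: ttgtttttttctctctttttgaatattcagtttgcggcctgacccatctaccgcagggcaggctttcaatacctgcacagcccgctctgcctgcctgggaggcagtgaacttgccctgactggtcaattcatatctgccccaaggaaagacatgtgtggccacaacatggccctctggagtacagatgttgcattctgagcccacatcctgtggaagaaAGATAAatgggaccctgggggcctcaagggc
Cd200r3, chr16:44943428-44943677, + strand: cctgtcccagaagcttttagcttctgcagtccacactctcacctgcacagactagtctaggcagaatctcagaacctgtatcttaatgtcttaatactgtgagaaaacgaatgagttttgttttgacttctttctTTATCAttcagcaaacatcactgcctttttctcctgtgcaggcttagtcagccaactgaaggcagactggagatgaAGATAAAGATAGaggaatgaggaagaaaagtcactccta
Cpa3, chr3:20242182-20242431, - strand: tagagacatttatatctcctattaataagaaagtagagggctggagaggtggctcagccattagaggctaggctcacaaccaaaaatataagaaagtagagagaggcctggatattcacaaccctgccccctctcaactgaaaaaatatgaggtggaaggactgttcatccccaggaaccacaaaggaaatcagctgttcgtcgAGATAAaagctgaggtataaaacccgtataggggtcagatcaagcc
Ms4a2, chr19:11623720-11623969, - strand: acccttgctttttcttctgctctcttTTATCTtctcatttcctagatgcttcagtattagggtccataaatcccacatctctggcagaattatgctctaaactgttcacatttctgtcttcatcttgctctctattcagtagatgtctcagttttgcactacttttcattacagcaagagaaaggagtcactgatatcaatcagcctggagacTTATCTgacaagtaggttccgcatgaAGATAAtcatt
Fcer1a, chr1:173227230-173227479, - strand: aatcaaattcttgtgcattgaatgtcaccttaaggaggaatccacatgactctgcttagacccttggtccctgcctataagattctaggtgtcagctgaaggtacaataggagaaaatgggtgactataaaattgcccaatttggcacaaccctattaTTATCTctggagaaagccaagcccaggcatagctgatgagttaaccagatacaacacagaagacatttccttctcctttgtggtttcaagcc
Mcpt8, chr14:56085198-56085447, - strand: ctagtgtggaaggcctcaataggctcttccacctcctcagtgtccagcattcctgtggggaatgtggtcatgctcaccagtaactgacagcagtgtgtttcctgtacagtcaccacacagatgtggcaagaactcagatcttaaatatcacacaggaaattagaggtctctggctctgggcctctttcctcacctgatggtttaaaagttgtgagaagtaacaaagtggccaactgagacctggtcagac
In Prss34 the word began 31 bases before the start, in Cpa3 46 bases before it and in Fcer1a 92 bases before it. Cd200r3 held 3, beginning 115, 39 and 33 bases before the start, and Ms4a2 held 3, at 224, 37 and 11 bases. In Hdc and Mcpt4 single words began 221 and 103 bases before the start, and neither promoter of Gata2 held one. These matches describe letters in a window and are not binding sites measured here.

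Of the 8 genes tested, 5 fell in ChAT_positive pools relative to ChAT_negative pools in the limma test (Benjamini-Hochberg adjusted p under 0.05): Prss34, Fcer1a, Cd200r3, Mcpt8 and Hdc. Over all genes tested, 3.15% were called lower, 2.81% higher and 5.96% in either direction. The groups did not overlap, ChAT_positive lower, for 5 of the 8 (6.14% of all genes, and 15.5% in either direction), and 6 of the 8 had means at least 4-fold lower (0.536% of all genes). Cpa3, Tpsb2 and Gata2 had lower means in ChAT_positive pools but did not pass. The 8 differences had a median of -3.24 on the log2 scale, against 0.026 over all genes. Cd200r3 passed the filter through ChAT_negative arrays alone, so that median and the counts above are partly set by the filter. Among probes well above background on all 8 arrays, where the filter cannot act in this way, 5 of the 10 genes were tested. Of these, 4 were called lower in ChAT_positive pools, with a median of -2.41 over the 5. They were Mcpt8 and Hdc and, nearer the threshold, Cpa3 (limma adjusted p = 0.0361) and Tpsb2 (0.0486). The differences of Cpa3 and Tpsb2 were the same as under the filter above, where they did not pass. Of 12166 genes so tested, 3.74% were called lower, with a median of 0.046. The 10 genes were chosen with earlier results of these data known, which no filter removes, so the comparisons with all genes are descriptions.

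**Figure D1:**
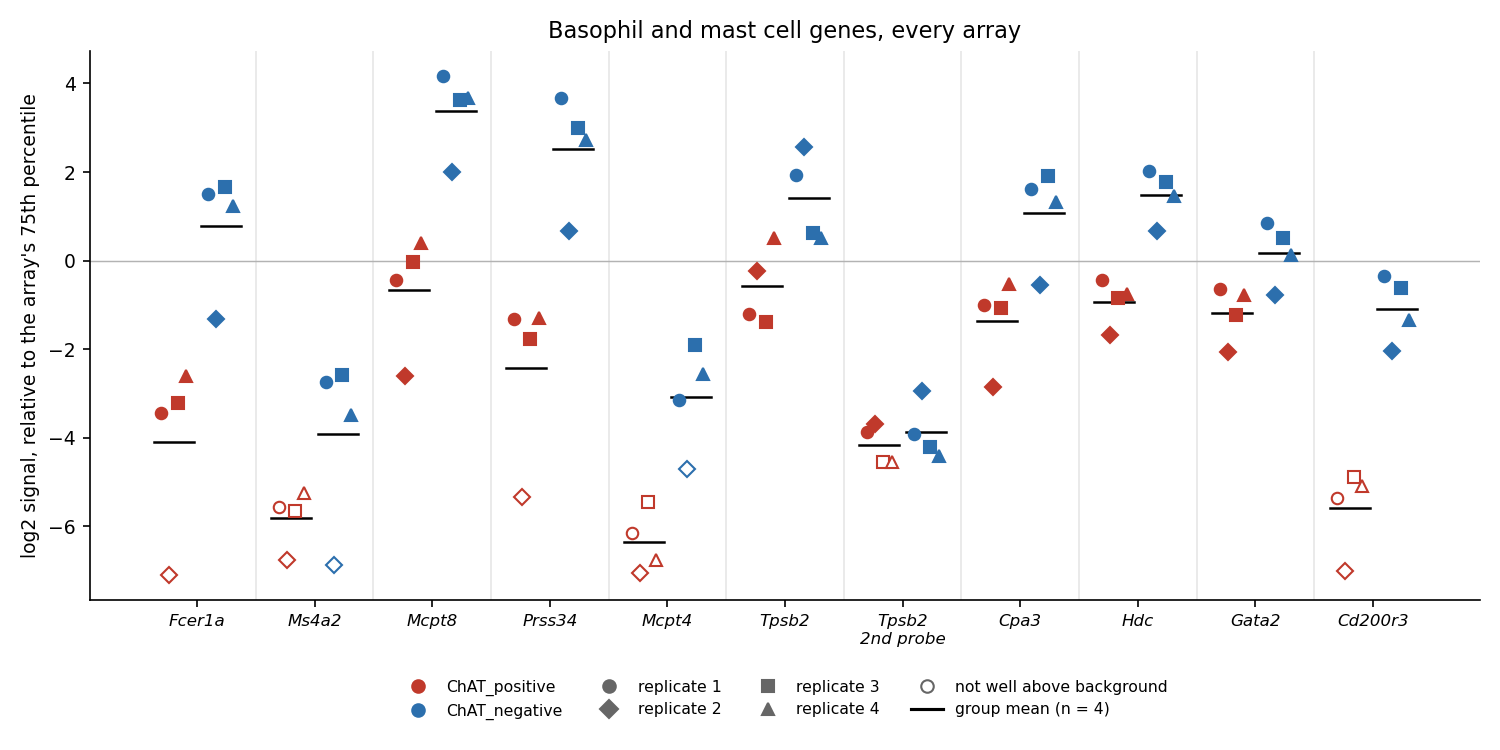
Signal of the 10 genes (11 probes) on every array, as log2 relative to the array's 75th percentile, with ChAT_positive pools in red left of ChAT_negative pools in blue; marker shapes give the replicate number, open markers were not well above background, and bars are group means. For 6 probes the groups do not overlap, and replicate 2 (diamonds) is the lowest of its group for every probe except those of Tpsb2.

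Of the IgE receptor genes, Fcer1a fell and Ms4a2 was too dim to test, and the fall of Fcer1g depended on the scaling. Fcer1a encodes the subunit that binds IgE. Its log2 signals were -3.44, -7.09, -3.21 and -2.61 in ChAT_positive replicates 1 to 4, against 1.51, -1.32, 1.67 and 1.23 in ChAT_negative replicates 1 to 4. Every ChAT_positive pool lay below every ChAT_negative pool, and replicate 2 was the lowest of its group in both and was not well above background in the ChAT_positive group. The difference was -4.86 (SE 1.01, limma adjusted p = 0.0305), or 29.1-fold lower with a 95% interval from 5.93 to 143-fold. The size rests in part on the dim replicate 2: the log2 difference was -3.86 without that ChAT_positive array and -5.56 without ChAT_negative replicate 2. It rests on the background correction too, since normexp background correction gave -3.77 (limma adjusted p = 0.0175). Leaving out any 1 of ChAT_positive replicates 1 and 3 and ChAT_negative replicates 1, 3 and 4 ended the call, at adjusted p of up to 0.0877, as did no filter (0.0685), a trended robust variance (0.0573) and leaving out both arrays numbered 3 (0.136).

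Ms4a2 encodes the beta subunit of that receptor, which amplifies its signal. It was not well above background on any ChAT_positive array, at -5.55, -6.75, -5.65 and -5.24, against -2.73, -6.88, -2.58 and -3.49 in ChAT_negative pools. Of the ChAT_negative pools 3 of 4 measured it, and replicate 2 lay with the ChAT_positive pools, so the groups overlapped. By its bound, which takes the lowest signal called well above background on an array where the probe is dimmer than that, it was at least 2.28-fold lower in ChAT_positive pools (exact two-sided permutation p = 0.143), and with no filter its limma adjusted p was 0.333. The gamma subunit gene Fcer1g, which the receptor shares with receptors of NK cells and other leukocytes, differed much less. It had means of 4.90 ± 0.22 in ChAT_positive and 5.47 ± 0.10 in ChAT_negative pools (SD, n = 4 each) and fell by 0.57 (SE 0.14, limma adjusted p = 0.0459), a call held without ChAT_positive replicate 2 and lost without any other single array (adjusted p up to 0.126). It was also lost with quantile normalization (0.0758), normexp (0.105) and median scaling, which gave -0.35 (0.315), and Fcer1g was called in 7 of 21 alternatives.

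Both basophil protease genes fell. Mcpt8 encodes mast cell protease 8, a granzyme-like protease of basophils. Its signals were -0.43, -2.61, -0.02 and 0.41 in ChAT_positive pools, against 4.17, 2.01, 3.64 and 3.67 in ChAT_negative pools. All 8 values were well above background, and the highest ChAT_positive pool lay below the lowest ChAT_negative one. Mcpt8 fell by 4.04 (SE 0.68, limma adjusted p = 0.0161), 16.4-fold with a 95% interval from 5.68 to 47.4-fold, and the difference was -3.39 without ChAT_positive replicate 2. The call was lost without ChAT_negative replicate 4 (adjusted p = 0.0548) and without both arrays numbered 3 (0.102).

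Prss34 encodes a tryptase-like protease of basophils. It had -1.31, -5.34, -1.77 and -1.31 in ChAT_positive pools, against 3.67, 0.68, 3.00 and 2.72 in ChAT_negative pools. The groups were 1.98 apart at their nearest, and ChAT_positive replicate 2 was not well above background. Prss34 fell by 4.95 (SE 0.96, limma adjusted p = 0.0246), 30.9-fold with a 95% interval from 6.85 to 139-fold. The log2 difference was -3.98 without the dim ChAT_positive replicate 2 and -5.56 without ChAT_negative replicate 2. With normexp it was -4.34 (limma adjusted p = 0.0128). Removing ChAT_positive replicate 3, or ChAT_negative replicate 3 or 4, ended the call (adjusted p up to 0.0709), as did no filter (0.0585) and leaving out both arrays numbered 3 (0.127).

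Neither mast cell protease gene was called: Mcpt4 was too dim to test, and Tpsb2 did not pass. Mcpt4, a chymase of connective tissue mast cells, was not well above background on any ChAT_positive array, at -6.14, -7.06, -5.44 and -6.75, against -3.14, -4.70, -1.91 and -2.56 in ChAT_negative pools. The groups did not overlap, and 3 of 4 ChAT_negative arrays measured it, all but replicate 2. It was at least 4.64-fold lower by its bound (exact two-sided permutation p = 0.0286, the smallest that 4 against 4 arrays can give). It was tested only where the filter was loosened, with limma adjusted p = 0.0328 for probes above background on at least 1 array and 0.0498 with no filter. In the former it entered through ChAT_negative arrays alone. Both tests set measured signal against ChAT_positive signals not well above background, so they add no support to the bound.

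Tpsb2, a tryptase of mast cell granules, had 2 probes that disagreed. Its brighter probe gave -1.21, -0.22, -1.39 and 0.52 in ChAT_positive pools, against 1.93, 2.56, 0.62 and 0.51 in ChAT_negative pools. ChAT_positive replicate 4 and ChAT_negative replicate 4 were level, and in the ChAT_negative group replicate 2 was the highest. The difference of -1.98 (SE 0.56, limma adjusted p = 0.0696) did not pass the threshold, with a 95% interval from -3.24 to -0.72, and the mean of both probes differed by -1.13 (adjusted p = 0.124). The dimmer probe differed by -0.29 (exact two-sided permutation p = 0.514) and exceeded background on 2 ChAT_positive and all 4 ChAT_negative arrays. Tpsab1, a close relative of Tpsb2, was not matched on the array by accession, so signal from it in these probes could not be checked.

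Cpa3, Hdc, Gata2 and Cd200r3 cover granule, mediator, lineage and surface functions. Cpa3 encodes carboxypeptidase A3, a granule exopeptidase. It had -1.01, -2.85, -1.08 and -0.53 in ChAT_positive pools, against 1.62, -0.55, 1.92 and 1.31 in ChAT_negative pools. The groups overlapped by 1 pair of pools, ChAT_positive replicate 4 and ChAT_negative replicate 2. The difference was -2.44 (SE 0.62, limma adjusted p = 0.0537) with a 95% interval from -3.85 to -1.03, and it passed the threshold without ChAT_negative replicate 2 (adjusted p = 0.0218).

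Hdc encodes histidine decarboxylase, the enzyme that makes histamine. Its signals were -0.44, -1.68, -0.85 and -0.75 in ChAT_positive pools, against 2.02, 0.66, 1.77 and 1.45 in ChAT_negative pools. The groups did not overlap, and all arrays were well above background. Hdc fell by 2.41 (SE 0.34, limma adjusted p = 0.00882), 5.30-fold, with a 95% interval of the log2 difference from -3.17 to -1.64. It was called whichever single array was left out (adjusted p up to 0.0338), though not without both arrays numbered 3 (0.0874).

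Gata2, the transcription factor of the group, is needed for basophils and mast cells and is also made in blood progenitors. It had -0.63, -2.07, -1.24 and -0.77 in ChAT_positive pools, against 0.85, -0.78, 0.50 and 0.13 in ChAT_negative pools. Only ChAT_negative replicate 2 reached into the ChAT_positive range. The difference of -1.35 (SE 0.40, limma adjusted p = 0.0812, 95% interval -2.27 to -0.44) was the smallest of the 8 and did not pass, and it passed without ChAT_negative replicate 2 (adjusted p = 0.0437).

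Cd200r3 encodes an activating receptor of the CD200 receptor family found on basophils and mast cells. It was not well above background on any ChAT_positive array, at -5.36, -7.00, -4.88 and -5.10, against -0.34, -2.04, -0.62 and -1.34 in ChAT_negative pools, all well above background. The nearest pools of the groups were 2.84 apart, the widest gap among the 11 probes. By its bound, Cd200r3 was at least 15.9-fold lower in ChAT_positive pools with the scanner's background correction (limma adjusted p = 0.00379 for the measured difference). It was called whichever single array was left out, at adjusted p of up to 0.0188. After normexp background correction its fitted log2 difference was -2.92, against -4.50 as measured. That is a smaller fall than the bound, so the bounds given here hold only for the scanner's background correction.

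**Figure D2:**
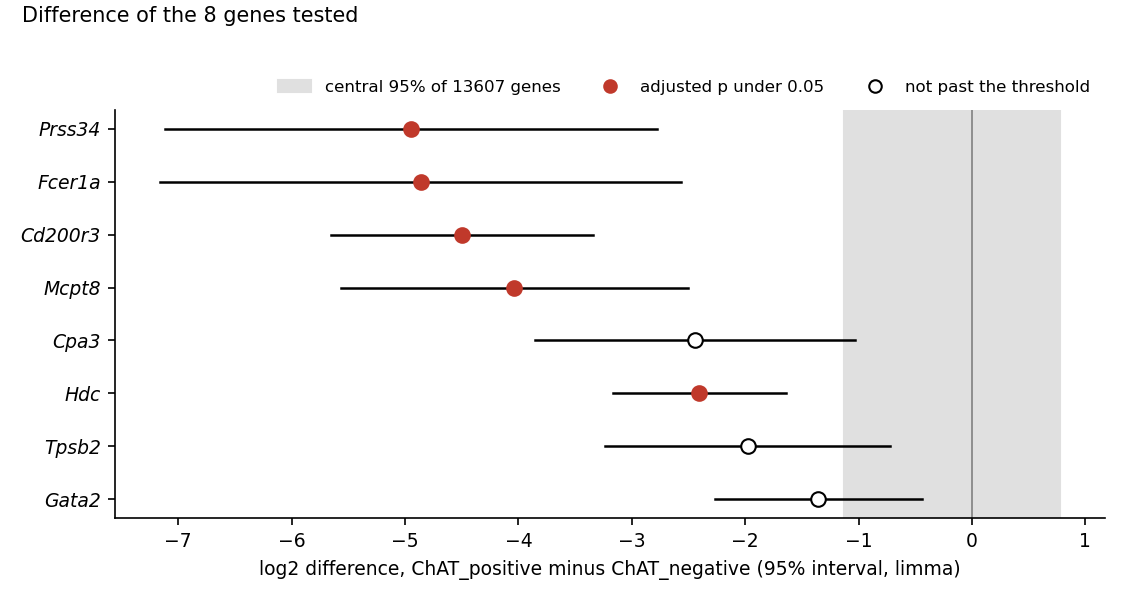
Log2 differences (ChAT_positive minus ChAT_negative) of the 8 genes tested, with 95% limma intervals; red points passed adjusted p under 0.05, and the grey band holds the central 95% of the differences of 13607 genes, from -1.13 to 0.78. All 8 points lie left of the band; Cd200r3 is drawn at its measured value, which rests on ChAT_positive signals not well above background.

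**Figure D3:**
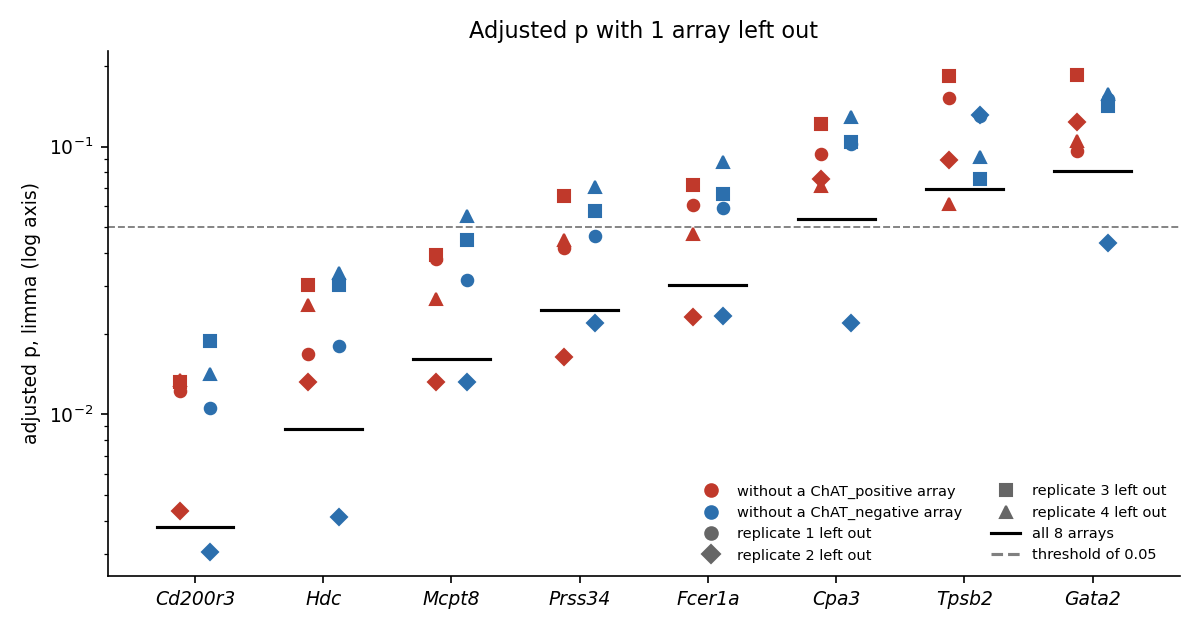
Adjusted p (limma, log axis) of each of the 8 genes with 1 array left out, by group (colour) and replicate number (shape); bars show all 8 arrays and the dashed line the threshold of 0.05. Cd200r3 and Hdc stay under the line each time, and leaving out ChAT_negative replicate 2 takes Cpa3 and Gata2 under it.

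The pools of a group did not hold these transcripts evenly, and 7 of the 8 genes varied together. Replicate 2 was the lowest of its group in both groups for 7 of the 8 genes tested and for the 9 probes that are not those of Tpsb2, against 13.3% of all genes tested. After the group means were taken out, the 21 pairs among those 7 genes correlated over the 8 arrays with Pearson's r between 0.88 and 0.99, whereas the 7 pairs with Tpsb2 had r between -0.42 and -0.28. These r describe 8 arrays that share 2 slides and carry no test. They include the low values of replicate 2, so they are not separate from that pattern. Of the 8 tested genes on the list of mast cell proteases and other mast cell genes, 2 were lowest in replicate 2 of both groups and 2 were highest there in both.

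**Figure D4:**
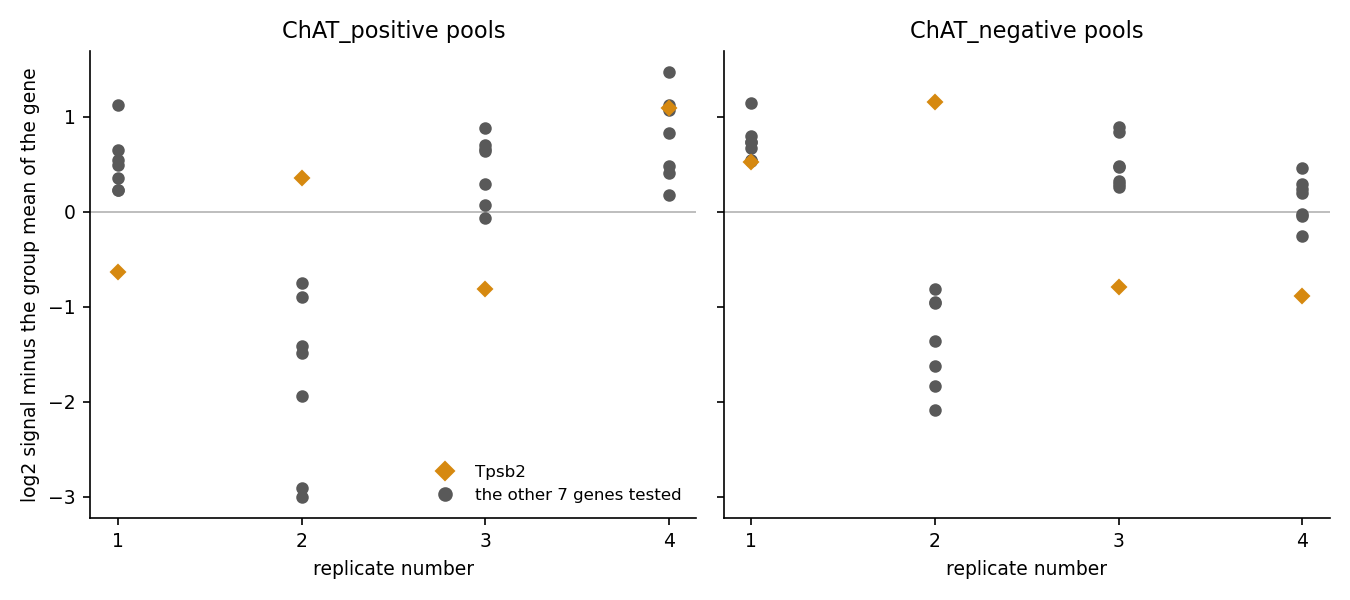
Deviation of each gene's log2 signal from its own group mean, by replicate number, in ChAT_positive pools (left) and ChAT_negative pools (right), for Tpsb2 (orange diamonds) and the other 7 genes tested (grey circles). In replicate 2 of both groups the 7 genes lie below 0 and Tpsb2 lies above it.

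Replicate 2 stood low for some other blood lineages and not for others. It was the lowest of its group in both groups for 7 of 7 platelet and megakaryocyte and 6 of 7 erythroid markers tested. So it was for 5 of 8 neutrophil, 4 of 6 eosinophil and 4 of 8 haematopoietic progenitor markers. It held that place for 3 of 9 monocyte, 2 of 8 B cell and 2 of 8 T cell markers. It did so for 0 of 8 dendritic cell and 0 of 12 NK cell markers. It was the highest in both groups for 7 of 12 NK cell and 4 of 8 T cell markers, against 2323 of 13607 genes. Without both arrays numbered 2, an alternative chosen after their values were seen, 7 of the 8 genes were called lower by limma. Their adjusted p lay between 1.2e-04 and 0.0264, and Tpsb2 was not called (adjusted p = 0.133). Over all genes, 343 of 13607 were then called lower. Both arrays held the lowest values of those 7 genes in their groups, so leaving them out narrows the spread within groups by construction. The log2 differences of those 7 genes then lay between -4.59 (Prss34) and -1.37 (Gata2).

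Other genes of basophil and mast cell function moved less uniformly, and most were not called. Of 18 tested genes of IgE receptor signalling, 1 fell (Fcer1g) and 2 rose, with a median of -0.11. Both that rose are kinases that also serve B cells: Btk, by 1.19 (SE 0.27, limma adjusted p = 0.0384), and Lyn, by 0.76 (SE 0.16, adjusted p = 0.0302). B cell markers rose beside them, 5 of 8, with a summed signal (linear, the 75th percentile of an array being 1) of 82.8 to 108 in ChAT_positive and 57.4 to 73.6 in ChAT_negative pools, and their part in the rise of Btk and Lyn was not tested. With 1 array left out the signalling genes called higher numbered 0 to 2. Btk held its call without ChAT_positive replicate 2 alone (adjusted p otherwise up to 0.105), and Lyn without ChAT_positive replicate 1 or 2 alone (otherwise up to 0.0829). Median scaling ended both calls (adjusted p = 0.0629 for Btk), and so did no filter (0.0833 for Btk and 0.0736 for Lyn).

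Among 8 tested proteases and other genes of mast cells, 3 fell and none rose by limma, with 0 higher at an unadjusted p under 0.05 and a median of -0.80. Ctsg, the protease cathepsin G of mast cells and neutrophils, had 0.02, -2.25, -0.14 and -0.02 in ChAT_positive pools, against 3.19, 0.53, 3.09 and 2.84 in ChAT_negative pools. It fell by 3.01 (SE 0.69, limma adjusted p = 0.0393). Replicate 2 was its lowest value in each group, and no pool of one group reached the other. Cma1 fell by 1.23 (adjusted p = 0.0486) and Cma2, a chymase-like gene well above background on 1 of 4 ChAT_positive arrays, by 1.97 (adjusted p = 0.03). With 1 array left out 0 to 2 of the list were called: Ctsg held without ChAT_negative replicate 2 alone, Cma1 when ChAT_positive replicate 2 or else ChAT_negative replicate 1 was missing, and Cma2 when ChAT_positive replicate 1, ChAT_negative replicate 1 or ChAT_negative replicate 2 was missing (adjusted p otherwise up to 0.105, 0.136 and 0.0774). Median scaling ended the calls of Ctsg (0.0519) and Cma1 (0.0787). For Cma2, whose ChAT_positive mean includes 3 arrays not well above background, quantile normalization ended the call (0.0912) and normexp gave -0.79 (0.0837). Kit, the stem cell factor receptor that mature mast cells need, had means of 1.85 ± 0.27 in ChAT_positive and 2.23 ± 0.18 in ChAT_negative pools (SD, n = 4 each; limma adjusted p = 0.194).

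The mediator enzymes were led by Alox5, the 5-lipoxygenase that starts leukotriene synthesis. It had -3.96, -5.05, -3.17 and -3.21 in ChAT_positive pools, against 0.38, -1.64, 0.07 and -0.23 in ChAT_negative pools. Again the groups did not overlap, and replicate 2 was the lowest of each. It fell by 3.49 (SE 0.52, limma adjusted p = 0.0107) and was called whichever single array was left out, 1 of 12 genes tested in that list, whose median was -0.15. ChAT_positive replicate 2 was not well above background, and normexp gave -2.70 (adjusted p = 0.0102). The call was lost without both arrays numbered 3 (0.0754). Slc18a2, the transporter that loads histamine into granules, differed by -0.0057 (SE 0.35, limma adjusted p = 0.995), beside the fall of Hdc.

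Of 18 tested cytokines and growth factor receptors of basophils, 1 fell and 1 rose, with a median of -0.15. Hgf, which encodes hepatocyte growth factor, fell by 2.70 (SE 0.49, limma adjusted p = 0.0201) with 2 of its ChAT_positive arrays above background. Removing ChAT_positive replicate 3, or ChAT_negative replicate 3 or 4, ended the call (adjusted p up to 0.0623), and normexp gave -1.39 (0.0268). Il13, a type 2 cytokine, rose by 1.50 (SE 0.21, adjusted p = 0.00882) whichever array was left out. Il3ra, the alpha chain of the receptor for interleukin 3, which drives basophil growth, differed by -0.16 (adjusted p = 0.431).

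Among 14 tested transcription factors of these lineages, Cebpa alone was called, lower by 0.84 (SE 0.20, limma adjusted p = 0.0465), and the median was -0.28. Its call held without ChAT_negative replicate 4 alone (otherwise adjusted p up to 0.117). It was lost with quantile normalization (0.0549) and median scaling (0.122), and normexp gave -0.41 (0.0478). Gata1, the other GATA factor of the list, differed by -0.42 (SE 0.53, adjusted p = 0.666). Of the 4 genes tested of the CD200 family, 2 close relatives of Cd200r3 fell: Cd200r4 by 1.26 (adjusted p = 0.0292) and Cd200r2 by 1.12 (adjusted p = 0.0245). Cd200r4 kept its call when ChAT_positive replicate 2 or ChAT_negative replicate 1 was missing, and Cd200r2 also when ChAT_positive replicate 4 or ChAT_negative replicate 3 was, but with no other array missing (otherwise adjusted p up to 0.0879 and 0.0774). Median scaling ended the calls of Cd200r4 (0.0703) and Cd200r2 (0.0645), and normexp gave -0.53 for Cd200r2 (0.0606). Whether their probes share signal with each other was not tested.

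Among 10 tested surface and enzyme genes 2 fell. Cyp11a1, a steroid-synthesis enzyme also made by basophils and mast cells, had -1.88, -2.59, -2.82 and -2.14 in ChAT_positive pools, against 0.74, -0.91, 0.42 and 0.00 in ChAT_negative pools. These values did not overlap, and it fell by 2.42 (SE 0.35, limma adjusted p = 0.00999). It was called whichever single array was left out, though not without both arrays numbered 3 (adjusted p = 0.0904). Pilra, an inhibitory receptor of myeloid cells, fell by 1.02 (adjusted p = 0.0408), a call that held without ChAT_positive replicate 2 or 4 alone (otherwise up to 0.105) and was lost with median scaling (0.155). Itga2, which encodes CD49b, differed by -0.47 (adjusted p = 0.208).

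**Figure D5:**
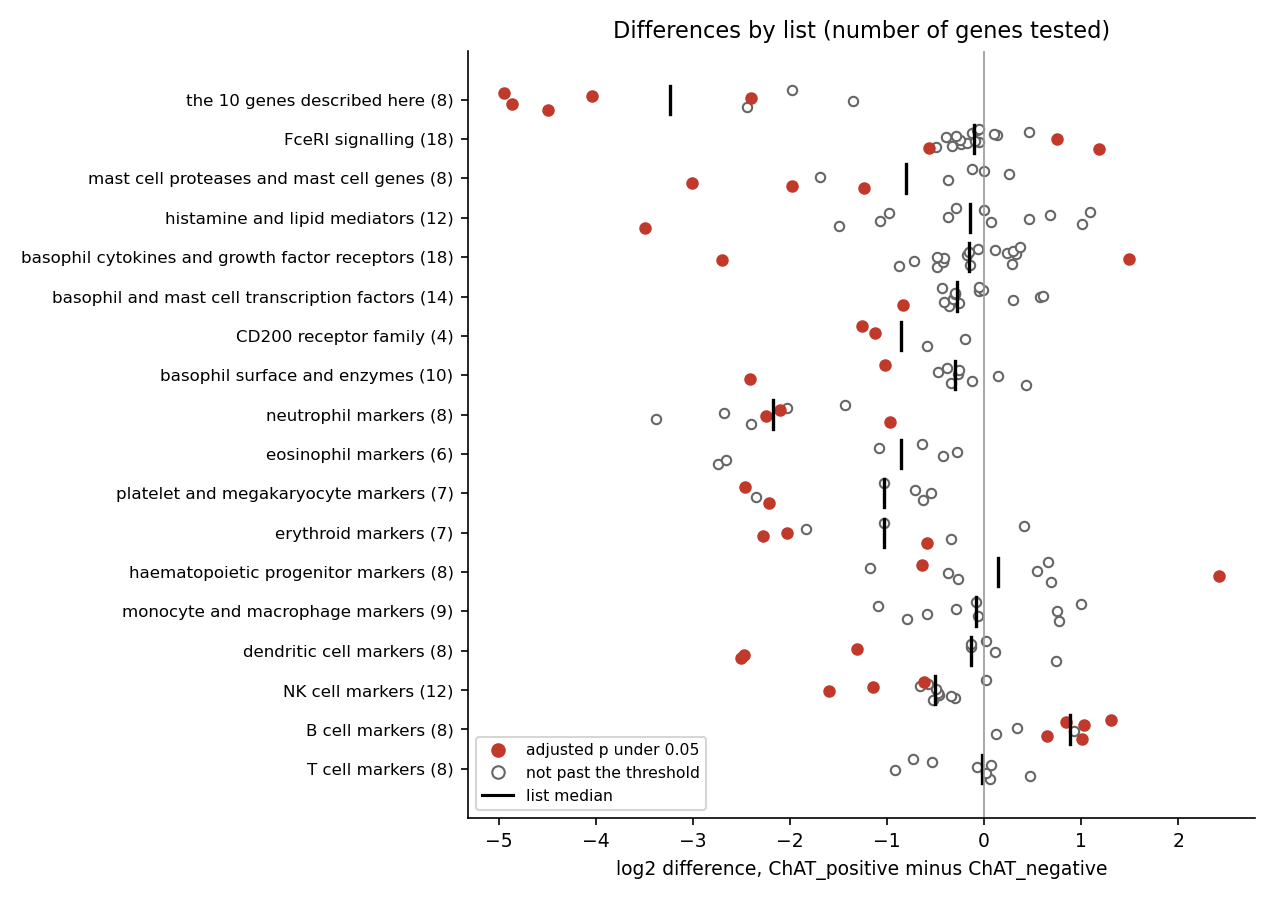
Log2 differences (ChAT_positive minus ChAT_negative) of every tested gene, by list, with the number of genes tested in brackets; red points passed adjusted p under 0.05 and bars are list medians. The 8 tested genes described here lie between -4.95 and -1.35; neutrophil, platelet and erythroid markers also lie mostly below 0, and B cell markers above it.

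Markers of some other blood cells moved beside the basophil genes. By limma, 3 of 8 neutrophil markers, 2 of 7 platelet and megakaryocyte markers, 3 of 7 erythroid markers and 3 of 8 dendritic cell markers (Itgax, Ccr9 and Clec9a) were lower, and 0 of 6 eosinophil markers, of which 3 were lower at an unadjusted p under 0.05. The dendritic cell marker Bst2 was higher by 0.74 without overlap of the groups (limma adjusted p = 0.0784). Flt3, Siglech, Xcr1 and Zbtb46 of that list were not called (adjusted p of 0.689 or more). Clec9a and the neutrophil marker Retnlg passed the filter through ChAT_negative arrays alone, so these counts are partly set by the filter. With 1 array left out, 0 to 3 neutrophil, 1 to 3 platelet, 2 to 3 erythroid and 2 to 3 dendritic cell markers were called lower. Of monocyte markers 0 of 9 were called by limma (2 lower and 2 higher at an unadjusted p under 0.05), and of T cell markers 0 of 8 (none at an unadjusted p under 0.05). Of 8 haematopoietic progenitor markers, with a median of 0.14, Myb was lower by 0.64 (limma adjusted p = 0.0312) and Hlf higher by 2.42 (0.00797). With 1 array left out, 0 to 1 of that list were called lower and 1 higher. Summed signals were 3.09 to 34.6 in ChAT_positive and 20.4 to 58.9 in ChAT_negative pools for neutrophil markers, and 3.02 to 8.06 in ChAT_positive and 7.34 to 22.1 in ChAT_negative pools for platelet markers. For erythroid markers they were 15.2 to 16.8 in ChAT_positive and 23.4 to 33.7 in ChAT_negative pools, and for eosinophil markers 1.56 to 2.20 in ChAT_positive and 2.72 to 5.60 in ChAT_negative pools. For dendritic cell markers the sums were 40.7 to 55.0 in ChAT_positive and 37.7 to 52.0 in ChAT_negative pools, for monocyte markers 12.9 to 14.8 in ChAT_positive and 16.1 to 19.1 in ChAT_negative pools, and for T cell markers 12.4 to 23.9 in ChAT_positive and 12.6 to 20.2 in ChAT_negative pools. The sum over the 8 basophil and mast cell genes was 1.75 to 5.22 in ChAT_positive and 15.0 to 47.1 in ChAT_negative pools. Epx, the eosinophil peroxidase gene, exceeded background on 3 of 4 ChAT_negative arrays and on no ChAT_positive array. Elane, the neutrophil elastase gene, did so on 1 ChAT_negative array alone. NK cell markers were lower too, 3 of 12 by limma, with 9 of 12 lower and 0 higher at an unadjusted p under 0.05. Their median difference was -0.51, and their summed signal was 162 to 238 in ChAT_positive and 242 to 288 in ChAT_negative pools. The part of these cell types in the difference of the 10 genes was not tested.

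The genes most like the basophil and mast cell genes were found by Pearson's r with the mean of the 8 tested, as a description with no test. Over the 8 arrays, group difference included, r was 0.98 to 0.99 for Gng11, Alox5, Myl9, Cdh1, Asprv1, Ppbp, Padi4 and Ctsg. All 8 were called lower in ChAT_positive pools by limma. A high r over separated groups fixes that direction in advance, though not the call. The smallest fall was 0.91 on the log2 scale (Asprv1, not called with median scaling, adjusted p = 0.183). Cdh1 had the largest measured difference, -4.70, with 1 of 4 ChAT_positive arrays above background, and normexp gave -3.01. Of these, Cdh1 and Alox5 were called whichever array was left out. Ppbp is also on the platelet list and Ctsg on the mast cell list. The other 6 lost their call without at least 3 single arrays each.

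After the group means were taken out, the highest r, 0.98 to 1.00, belonged to Pla2g4a, Amot, Thbs1, Angpt1, Cpq, Aldh1a7, Dach1 and Siglecf. By limma 0 of these 8 were called, and 0 had an unadjusted p under 0.05. Siglecf is also on the eosinophil list. Their differences ran from -0.82 to 0.68. Pla2g4a, a phospholipase gene, had -0.35, -1.84, -0.43 and -0.07 in ChAT_positive pools, against -0.81, -2.06, -1.10 and -1.46 in ChAT_negative pools. It was thus low in replicate 2 of both groups, as the basophil genes were, while its mean was higher in ChAT_positive pools by 0.68 (SE 0.40, adjusted p = 0.331).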

How the data were processed

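RNA of 8 pools of mouse spleen NK cells was hybridised to 1-colour Agilent arrays. The deposited scanner files, written by Feature Extraction 11.5.1.1 (Agilent) per the file headers, give each spot an intensity from which that array's background was taken, without scaling across arrays, and flags. A deposited table lists log2 values of 31942 probes. Each of its columns differed from the scanner's log2 intensities, scaled within each array as described below, by a constant of at most 0.0065. The table thus shares the scaling used here, up to that constant, and is not centred per gene. Its column medians lie between -0.72 and -0.63, and no source used here says how its probes were chosen.

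Control spots were dropped, outlier-flagged spots left out unless all spots of a probe were flagged (51 probe values), and log2 intensities averaged per probe. A probe counted as well above background where at least 50% of its spots did. Each array's 75th percentile over 55681 probes was subtracted. RefSeq accessions, without versions, gave 26762 probes 1 symbol in a GRCm38.p6 table; the headers annotate the array on an earlier build, so only promoter coordinates of that table's build are given. Probes passing that on 4 or more of the 8 arrays were kept, and the brightest probe stood for its gene. ChAT_positive minus ChAT_negative was fitted over 13607 genes with limma 3.58.1 in R 4.3.3 (lmFit, eBayes, two-sided, Benjamini-Hochberg over all genes), with exact two-sided permutation over arrays for single probes. The fit was tested on simulated data.

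The members and lists were chosen with earlier results of these data known. Named are all members, up to 4 called genes per list by adjusted p, and 8 genes by each measure of likeness; others (Kit, Slc18a2, Il3ra, Gata1, Itga2, Tpsab1 and markers of other cells) were added after their values were seen. The number of arrays limits the precision. The alternatives changed scaling, background correction, filter, probe choice, variance model, weights, block, threshold, value source and arrays. No value column lacked a sample.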

Additional observations from a re-analysis of the deposited data

Results flagged for a closer look

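Of the 22 sets of 4 array values behind the 11 probes, 2 had a lowest value whose gap to the next exceeded Dixon's 95% critical value for 4 samples, where chance flags about 5% of sets. Prss34 was -5.34 in ChAT_positive replicate 2, and the next lowest of that group was -1.77. Fcer1a was -1.32 in ChAT_negative replicate 2, and the next lowest of that group was 1.23. Both values belong to pools numbered 2, in which the other basophil genes were low as well.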

How the results depend on the processing

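With the settings of the report 5 of the basophil and mast cell genes were called lower, and 811 genes in all. Every member that could be tested was lower in ChAT_positive pools under each alternative run, 169 of 169 values. These values are not separate evidence, since all reuse the same arrays. Changes of filter, variance model or block left the difference of a probe as it was and could not alter its sign. Leaving out 1 array gave 2 to 7 members called and 210 to 704 genes. Without both arrays numbered 3 there were 1 and 56, and without both numbered 2, added after seeing the data, 7 and 535. Adjusted p under 0.01 gave 2 and 104, and under 0.1, 8 and 1705. Median scaling gave 330 genes (119 lower and 211 higher, against 428 and 383) and no filter 223, with 5 and 4 members. Quantile normalization gave 396 lower and 512 higher genes. With the replicate number as a block (replicate block) 8 members, Cpa3, Gata2 and Tpsb2 among them (adjusted p = 5.38e-04, 0.00264 and 0.0236), and 2342 genes were called. Same-numbered arrays shared deviations from their group means at r = 0.54, 0.66, 0.52 and 0.03 for numbers 1 to 4, so the last pair did not, and not every array correlated best with its own number; the labels name no shared litter, batch or day. The causes were not tested. Cd200r3 was called in 20 of 20 alternatives and Hdc in 20 of 21; Mcpt8 was called in 19 of 21, Prss34 in 15 of 20, Fcer1a in 12 of 20, Cpa3 in 6, Gata2 in 3 and Tpsb2 in 2 of 21. Signal near background limits Ms4a2, Mcpt4 and Cd200r3 in ChAT_positive pools. Of these, Cd200r3 passed the filter through ChAT_negative arrays alone. It could not be tested among probes well above background on all 8 arrays, so its alternatives do not include that one.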
